A study of Mus musculus with 6 samples.

Results

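Fibronectin (Fn1), osteopontin (Spp1), tenascin-C (Tnc), periostin (Postn), SPARC (Sparc) and the tissue inhibitors of metalloproteinases TIMP1 and TIMP3 (Timp1, Timp3) are secreted proteins of the extracellular matrix. These 7 genes were taken by name from the 42450 genes of the count table, and all 7 were among the 18905 genes with enough counts to be tested. They were measured by total RNA sequencing in mouse embryonic stem cells of the male line E14tg2a.4, in 3 libraries of the parental wild-type line (WT) and 3 libraries of its derivative CG0630, which carries a gene-trap cassette in exon 1 of 1 Srrm2 allele (Srrm2+/-). Both groups were grown on gelatin in medium with LIF, the cytokine that maintains pluripotency, and moved to serum-free medium with LIF before collection. The Srrm2+/- cells are 1 clone. They were frozen at lower passage numbers than the WT cells, so genotype, clone and passage cannot be told apart.

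The extracellular matrix is the scaffold that cells secrete around themselves. Fibronectin is assembled into fibrils by integrins, chiefly by the receptor that pairs the alpha 5 and beta 1 chains, and holds cells to that scaffold. Matricellular proteins such as SPARC, tenascin-C, periostin and osteopontin build little of it but modulate how cells adhere to it, and TIMPs block the metalloproteinases that cut it. In the early mouse embryo, fibronectin and SPARC are abundant products of the parietal endoderm that lines the yolk sac.

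Libraries held 54151433 to 58499765 estimated counts in WT and 61022915 to 69933421 in Srrm2+/-. Levels are given as CPM, the count of a gene relative to the library total after TMM scaling, and values with ± are means with their SD over the 3 libraries of a group (n = 3). Srrm2 itself, as a check of the labels, averaged 95.7 ± 3.94 CPM in the WT libraries against 59.3 ± 3.02 CPM in the Srrm2+/- libraries (log2 fold change -0.69, SE 0.05, adjusted p 2.38e-05 in edgeR). The replicates were thawed from separately frozen batches of each line, so p-values measure the spread between such batches of 1 line.

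The 7 genes divided into a group that was lower and a group that was higher in Srrm2+/- cells. Spp1, Fn1 and Timp1 fell, to between 64.5% and 74.8% of their WT level, while Sparc, Timp3, Tnc and Postn rose by between 1.98-fold and 7.14-fold. All 7 passed the edgeR threshold (adjusted p under 0.05), 4 higher and 3 lower, where 25.3% of all tested genes passed it, 13.6% higher and 11.7% lower. Postn passed the filter on low counts only through the Srrm2+/- libraries, so it could be tested only because it was higher there. For each of the 7 the WT and Srrm2+/- libraries did not overlap, as was the case for 41.4% of all tested genes. Tnc, Postn and Timp3 also changed by 1 or more on the log2 scale, as did 6.1% of all tested genes at the same adjusted p. The median log2 fold change of the 7 genes was 0.99, beside -0.0025 for all tested genes. In bulk RNA, fewer cells that express a gene and less of its RNA per cell cannot be told apart.

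**Figure D1:**
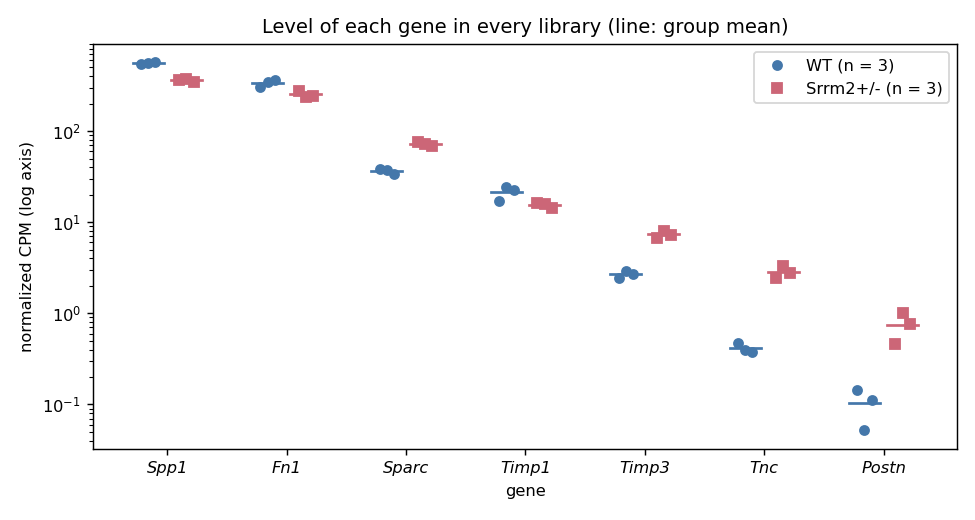
Normalized CPM (log axis) of the 7 genes in each of the 3 WT libraries (circles) and 3 Srrm2+/- libraries (squares), with a line at each group mean. Spp1, Fn1 and Timp1 lie lower in Srrm2+/- and Sparc, Timp3, Tnc and Postn higher, with the narrowest gap for Timp1, between 17.2 CPM in the lowest WT library and 16.3 CPM in the highest Srrm2+/- library.

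Promoter sequence is shown for the pair with the largest rises, Tnc and Postn, and for the TIMP pair, whose members changed in opposite directions. Each is the run of 250 bases before the RefSeq start (GRCm38.p6), read 5′ to 3′ on the strand of the gene. Capitals mark matches, on either strand, to the letters of the TATA box, here TATAAA, of the GC box bound by SP1, here GGGCGG, of TEAD sites, here GGAATG, and of AP-1 sites, here TGANTCA, or to the CArG box of the serum response factor.
Tnc, chr4:64047016-64047265, minus strand: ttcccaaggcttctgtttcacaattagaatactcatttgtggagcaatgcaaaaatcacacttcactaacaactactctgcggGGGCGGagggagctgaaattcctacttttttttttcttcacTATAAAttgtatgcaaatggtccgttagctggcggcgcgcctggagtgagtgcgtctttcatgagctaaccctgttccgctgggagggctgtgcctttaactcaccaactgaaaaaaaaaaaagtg
Postn, chr3:54360857-54361106, plus strand: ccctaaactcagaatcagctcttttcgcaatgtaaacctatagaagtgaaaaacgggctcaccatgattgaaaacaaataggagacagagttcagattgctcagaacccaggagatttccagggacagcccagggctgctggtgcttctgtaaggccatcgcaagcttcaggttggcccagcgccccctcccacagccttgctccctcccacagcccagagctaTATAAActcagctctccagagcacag
Timp1, chrX:20869916-20870165, plus strand: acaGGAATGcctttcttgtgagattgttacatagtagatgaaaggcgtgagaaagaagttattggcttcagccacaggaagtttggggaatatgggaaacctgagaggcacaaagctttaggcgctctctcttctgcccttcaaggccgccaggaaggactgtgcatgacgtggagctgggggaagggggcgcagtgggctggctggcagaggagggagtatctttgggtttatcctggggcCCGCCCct
Timp3, chr10:86300162-86300411, plus strand: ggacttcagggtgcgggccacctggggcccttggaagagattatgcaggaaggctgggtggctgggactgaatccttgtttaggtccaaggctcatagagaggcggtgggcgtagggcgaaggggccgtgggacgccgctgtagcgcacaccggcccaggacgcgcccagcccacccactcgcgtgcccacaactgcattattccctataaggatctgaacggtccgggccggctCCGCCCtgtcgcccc

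Tnc and Postn both hold TATAAA, which begins 126 bases before the start in Tnc and 26 bases before it in Postn, and which is found in 12.4% of 32851 promoter windows of this length. Timp1 and Timp3 both hold a GC box close to the start, 8 and 15 bases before it, and Tnc holds one farther away at 167 bases. GC boxes are found in 32.7% of the windows. Timp1 alone of these 4 windows has GGAATG (12.6% of the windows), and none of the 4 has a match to AP-1 (6.75%) or to the CArG box (1.47%). The windows differ in base composition, with 44.8% G and C in Tnc, 52.0% in Postn, 54.4% in Timp1 and 65.6% in Timp3. Tnc has a further RefSeq start 79 bases downstream, with a window that holds the same matches. Postn has a further RefSeq start upstream of the one shown, with no match in its window. Spp1 holds TATAAA 211 bases before its first start, the Sparc window has no match to any of the letters, and Fn1 was not matched. The Sparc window lies before a RefSeq start 3103 bases downstream of the GENCODE start of the gene. For Timp3 the RefSeq start lies 40 bases downstream of the GENCODE start, so its GC box falls inside the gene as GENCODE places it. A match is a description of letters and not evidence of binding.

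Spp1 encodes osteopontin, an acidic phosphoprotein that binds integrins and CD44. It lies at chr5:104435118-104441050 on the plus strand and was the most abundant of the 7 genes. Its level was 545, 561 and 567 CPM in the WT libraries and 365, 369 and 346 CPM in the Srrm2+/- libraries. Replicates lay close together, and every Srrm2+/- library was far below every WT library. The level fell from 558 ± 11.3 to 360 ± 12.3 CPM (log2 fold change -0.63, SE 0.04, 95% interval -0.72 to -0.54, edgeR adjusted p 1.21e-05).

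Fn1 encodes fibronectin and lies at chr1:71585520-71653200 on the minus strand. Its level was 305, 346 and 360 CPM in WT and 275, 238 and 243 CPM in Srrm2+/-. The groups did not overlap, and WT replicate 1 and Srrm2+/- replicate 1 came closest to each other. The level fell from 337 ± 28.8 to 252 ± 20.1 CPM (log2 fold change -0.42, SE 0.07, 95% interval -0.59 to -0.25, edgeR adjusted p 0.00348). Fibronectin is made in several splice forms, and the annotation lists 17 Fn1 transcripts, of which 9 are protein coding. The deposited values are sums per gene, so these forms were not resolved here.

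Sparc encodes a collagen-binding glycoprotein, also called osteonectin, that loosens cell adhesion, and lies at chr11:55394500-55423183 on the minus strand. The WT libraries held 38.1, 37.1 and 34.2 CPM and the Srrm2+/- libraries 76.2, 71.9 and 68.9 CPM. The lowest Srrm2+/- library was well above the highest WT library. The level rose from 36.5 ± 2.03 to 72.3 ± 3.69 CPM, which is 1.98-fold (95% interval 1.81 to 2.17, log2 fold change 0.99, SE 0.06, edgeR adjusted p 5.88e-06). Because Fn1 fell while Sparc rose, the ratio of Sparc CPM to Fn1 CPM within a library went from 0.125, 0.107 and 0.095 in WT to 0.277, 0.302 and 0.283 in Srrm2+/-.

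Tnc encodes tenascin-C, a large hexameric protein that interferes with adhesion to fibronectin, and lies at chr4:63959785-64047015 on the minus strand. It was barely detected in WT, at 0.469, 0.398 and 0.373 CPM, on 26, 23 and 20 counts. In Srrm2+/- it reached 2.41, 3.34 and 2.76 CPM, on 167, 230 and 170 counts. All 3 Srrm2+/- libraries were several times above the WT libraries. The fold change was 6.83 (95% interval 4.97 to 9.38, log2 fold change 2.77, SE 0.20, edgeR adjusted p 2.37e-05), and 120 of the 18905 tested genes had a larger log2 fold change.

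Postn encodes periostin, a matrix protein of fibroblasts, bone and developing heart valves, and lies at chr3:54361109-54391037 on the plus strand. It was the scarcest of the 7 genes, with counts of 8, 3 and 6 in the WT libraries, where the Srrm2+/- libraries held 32, 69 and 47. On the CPM scale these are 0.144, 0.0519 and 0.112 in WT and 0.462, 1.00 and 0.762 in Srrm2+/-. The direction was the same in every pair of libraries, but the spread was wide in both groups. The fold change was 7.14, with a 95% interval from 3.51 to 14.5 (log2 fold change 2.83, SE 0.45, edgeR adjusted p 0.00196). The WT libraries held 17 Postn counts in all, so the size of the rise is known less well than its direction.

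Timp1 encodes a secreted inhibitor of most matrix metalloproteinases and lies at chrX:20870166-20874735 on the plus strand. The WT libraries held 17.2, 24.4 and 22.6 CPM, and the Srrm2+/- libraries held 16.3, 15.9 and 14.4 CPM. WT replicate 1 lay nearer to the Srrm2+/- libraries than to the other WT libraries. The level fell from 21.4 ± 3.72 to 15.5 ± 1.02 CPM (log2 fold change -0.46, SE 0.12, 95% interval -0.73 to -0.19, edgeR adjusted p 0.0197). This call was lost when WT replicate 2 (adjusted p 0.0704), WT replicate 3 (0.0626), Srrm2+/- replicate 2 (0.0542) or Srrm2+/- replicate 3 (0.0773) was left out of the edgeR fit, with log2 fold changes of -0.35, -0.42, -0.47 and -0.41.

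Timp3 encodes the TIMP that stays bound to the matrix and that also inhibits the sheddase ADAM17, and lies at chr10:86300372-86349506 on the plus strand. Its CPM were 2.41, 2.92 and 2.69 in the WT libraries and 6.79, 7.92 and 7.33 in the Srrm2+/- libraries, with no overlap. The level rose from 2.68 ± 0.255 to 7.34 ± 0.563 CPM, which is 2.74-fold (95% interval 2.28 to 3.30, log2 fold change 1.46, SE 0.12, edgeR adjusted p 4.24e-05). Timp3 overlaps Syn3, a synapsin gene on the opposite strand, with 1733 exon bases in common, and 21.1% of the 31-base words of its transcripts also occur in Syn3 transcripts. Whether the counting used strand was not given in the sources used here. Syn3 held fewer counts than Timp3 in every library, 71, 37 and 64 in WT and 90, 97 and 84 in Srrm2+/-, and was not called (0.39 on the log2 scale, SE 0.26, edgeR adjusted p 0.321).

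**Figure D2:**
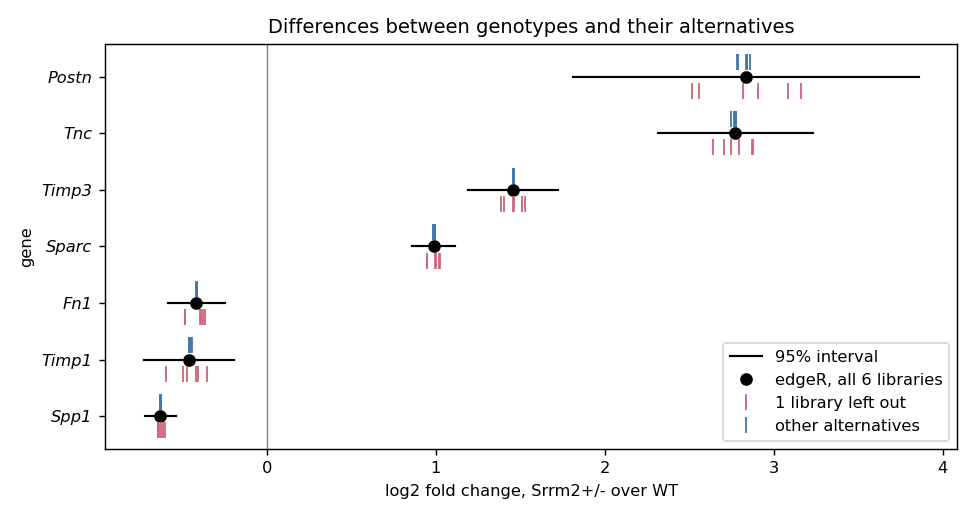
Log2 fold change of Srrm2+/- over WT for the 7 genes in edgeR (black points with 95% intervals), with the values when 1 library was left out (red ticks below) and under other normalizations, tools, filters and the replicate block (blue ticks above). Each gene stays on its side of 0, Postn moves most, from 2.51 to 3.16, and Spp1 and Sparc move little.

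The other genes, except Spp1, shared little sequence with the rest of the transcriptome. No 31-base word of Postn or Timp1 occurs in transcripts of another gene, and the share was 1.53% for Tnc, 1.65% for Sparc and 3.89% for Fn1. For Spp1 it was 14.3%, all in the predicted gene Gm42793 on the same strand, for which the count table held no value. The antisense transcript Apol7d overlaps Fn1 on the opposite strand and held 43 to 65 counts per library, against at least 15013 for Fn1.

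To compare levels between genes, CPM were divided by the length in kilobases of the union of exons of each gene. In WT the order of CPM per kilobase was Spp1 (339 ± 6.85), Fn1 (28.8 ± 2.46), Timp1 (24.1 ± 4.19), Sparc (9.63 ± 0.536), Timp3 (0.329 ± 0.0313), Tnc (0.0532 ± 0.00636) and Postn (0.0118 ± 0.00538). Spp1 was thus above 98.8% of the tested genes with a known length, and Postn above 0.287% of them. Fn1 and Timp1 overlapped between libraries, at 26.1 to 30.8 and 19.4 to 27.5 CPM per kilobase, and all other neighbours in this order were separate. In Srrm2+/- the order became Spp1 (219 ± 7.44), Fn1 (21.6 ± 1.72), Sparc (19.1 ± 0.975), Timp1 (17.5 ± 1.14), Timp3 (0.902 ± 0.0691), Tnc (0.365 ± 0.060) and Postn (0.0852 ± 0.0310). Sparc moved past Timp1 in the means, although the ranges met, at 18.2 to 20.1 and 16.2 to 18.4 CPM per kilobase. The places of Fn1 and Sparc depended on the length used. Divided by the longest transcript instead, Fn1 was at 40.5 ± 3.46 CPM per kilobase in WT, clear of Timp1 at 24.2 ± 4.21, and in Srrm2+/- it met Sparc, at 30.3 ± 2.42 and 31.4 ± 1.61. By that length, Sparc in Srrm2+/- was clear of Timp1, at 30.0 to 33.1 and 16.3 to 18.5 CPM per kilobase.

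**Figure D3:**
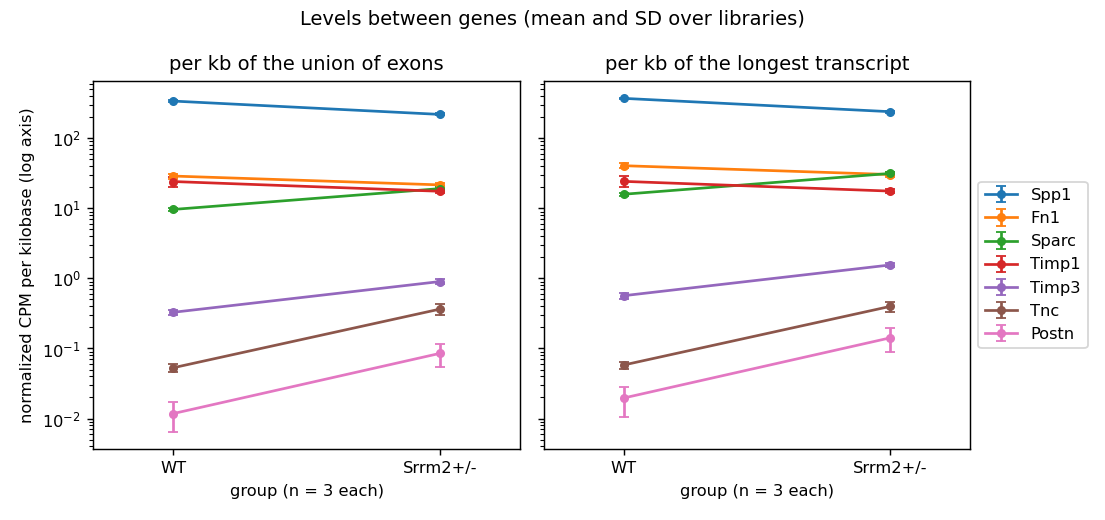
Normalized CPM per kilobase (log axis, mean and SD over 3 libraries) of the 7 genes in WT and Srrm2+/-, with length taken as the union of exons (left) or the longest transcript (right). Spp1 stays highest and Postn lowest, and the lines of Sparc and Timp1 cross between the genotypes. On the right, the lines of Sparc and Fn1 also cross in the means.

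Spp1 and Fn1 carried most of the counts of the group. Together they made up 93.3% to 93.9% of the CPM of the 7 genes in WT libraries and 85.9% to 86.2% in Srrm2+/- libraries. The 7 genes summed to 909, 972 and 988 CPM in WT and to 743, 707 and 684 CPM in Srrm2+/-, so the group as a whole was less abundant in Srrm2+/- even though 4 of its genes were higher. The 3 scarcest genes, Tnc, Postn and Timp3, summed to 3.03, 3.37 and 3.17 CPM in WT and to 9.67, 12.3 and 10.8 CPM in Srrm2+/-.

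The other TIMPs were set beside Timp1 and Timp3. Timp2, which also takes part in activating MMP2, rose from 0.900 ± 0.0460 to 2.99 ± 0.302 CPM (log2 fold change 1.73, SE 0.16, edgeR adjusted p 7.77e-05). Timp4 was too low to be tested, at 0.069 to 0.231 CPM. Timp1 made up 97.3% to 97.9% of TIMP transcripts per kilobase in WT libraries and 90.6% to 92.2% in Srrm2+/- libraries, and the ratio of Timp1 to Timp3 per kilobase went from 65.4, 76.5 and 76.9 to 22.1, 18.4 and 18.0. The sum of the 4 TIMPs was 19.94, 28.06 and 25.99 CPM per kilobase in WT and 19.97, 19.70 and 17.90 in Srrm2+/-. Those sums overlapped, since WT replicate 1 was level with Srrm2+/- replicate 1.

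**Figure D4:**
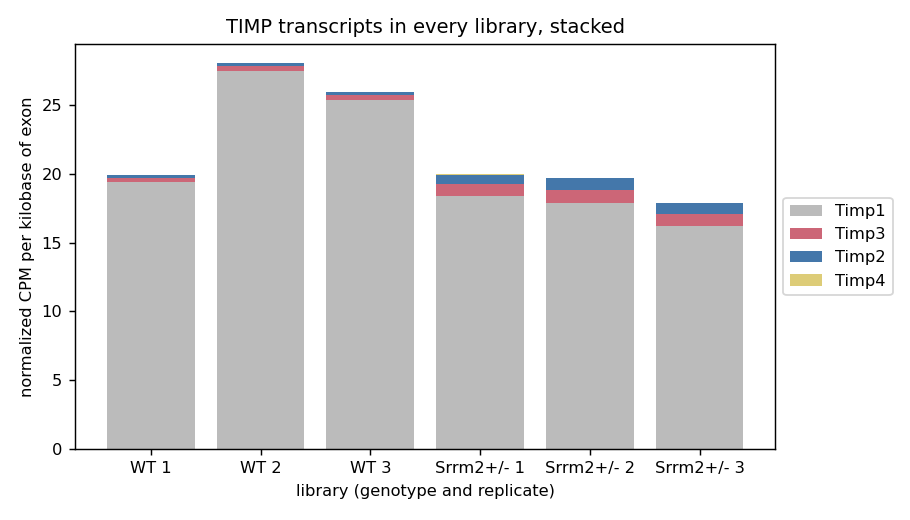
Normalized CPM per kilobase of exon of Timp1, Timp3, Timp2 and Timp4, stacked, in each of the 6 libraries. Timp1 fills most of every bar, and the Timp3 and Timp2 layers are thicker in the 3 Srrm2+/- libraries.

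Relatives of the 7 genes were then compared, to see whether the differences extended over their families. Among all tested genes 25.3% were called, 13.6% higher and 11.7% lower, and the counts called in each list below stand beside those shares. Of 26 matricellular relatives listed, 16 were tested, of which 7 were higher and 2 lower, with a median log2 fold change of 0.59 that was 0.25 without WT replicate 1. Of the 7 SPARC relatives listed, 4 were tested and 1 passed the threshold, Fstl1, which fell from 85.0 ± 4.55 to 71.0 ± 2.14 CPM (log2 fold change -0.26, SE 0.05, edgeR adjusted p 0.0044). Smoc1 (-0.13, 95% interval -0.24 to -0.01), Spock2 (0.18, -0.0804 to 0.45) and Spock3 (0.57, -0.47 to 1.61) did not pass it on the log2 scale. Of the 3 further tenascins, Tnr was tested but not called (log2 fold change 0.40, 95% interval -0.64 to 1.44), and Tnn and Tnxb stayed at or below 0.156 CPM. Tgfbi, the closest relative of Postn, fell from 2.84 ± 0.862 to 1.52 ± 0.0338 CPM (log2 fold change -0.90, SE 0.22, edgeR adjusted p 0.0146), in the opposite direction to Postn. Of 4 genes of the bone phosphoprotein family of Spp1, Dmp1 was tested and was not called (log2 fold change -0.43, 95% interval -1.09 to 0.23), and Ibsp, Mepe and Dspp were at or below 0.0187 CPM.

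The rises among matricellular relatives lay in thrombospondins, of which 4 of 5 were higher, and CCN proteins, of which 3 of 6 listed were higher. Ccn1, an integrin ligand, had the largest, from 1.93 ± 0.333 to 30.0 ± 4.97 CPM (log2 fold change 3.96, SE 0.16, edgeR adjusted p 8.69e-07). The others, named after their values were seen, were Thbs1 (3.82), Ccn2 (3.01), Thbs4 (2.51), Ccn4 (2.30), Thbs2 (0.78) and Thbs3 (0.61) on the log2 scale. Thbs4, like Postn, could be tested only with the counts of the Srrm2+/- libraries. Among 18 adhesive and elastic fibre glycoproteins, 14 were tested, with 5 higher, 1 lower and a median log2 fold change of 0.33, or 0.19 without Srrm2+/- replicate 3. The fibrillin gene Fbn2 rose most, from 0.330 ± 0.0609 to 1.09 ± 0.0956 CPM (log2 fold change 1.72, SE 0.23, edgeR adjusted p 0.000833). The fibulin gene Fbln1, whose product binds fibronectin, was the one that fell, from 14.3 ± 0.356 to 7.21 ± 0.557 CPM (log2 fold change -0.99, SE 0.08, edgeR adjusted p 3.63e-05).

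All 14 listed receptors of fibronectin, osteopontin and tenascin-C were tested, with 8 higher, 2 lower and a median log2 fold change of 0.54. The chains of the main fibronectin receptor behaved differently. Itgb1 rose from 236 ± 2.90 to 348 ± 7.79 CPM (log2 fold change 0.56, SE 0.04, edgeR adjusted p 1.39e-05), whereas Itga5 was at 17.6 ± 2.12 and 16.6 ± 1.41 CPM, a log2 fold change of -0.0855 with a 95% interval from -0.30 to 0.13. Itgav, which pairs with several beta chains to bind fibronectin and osteopontin, had a log2 fold change of 0.0765 (95% interval -0.0600 to 0.21). The osteopontin receptor gene Cd44 rose from 0.279 ± 0.145 to 1.12 ± 0.0851 CPM (log2 fold change 2.00, SE 0.36, edgeR adjusted p 0.00384). Itgb8 had the largest rise (log2 fold change 3.25, SE 0.40, edgeR adjusted p 0.000504), from 0.131 ± 0.0714 to 1.27 ± 0.362 CPM. Like Postn, Itgb8 and Cd44 had too few counts in the WT libraries alone to pass the filter on low counts. Both could be tested only with the counts of the Srrm2+/- libraries. Itga9, which binds tenascin-C and osteopontin, had the largest fall, from 15.6 ± 0.785 to 10.7 ± 0.815 CPM (log2 fold change -0.55, SE 0.08, edgeR adjusted p 0.000833).

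Metalloproteinases, the enzymes inhibited by TIMPs and their relatives, were listed with 29 genes, of which 23 were tested, with 10 higher, 3 lower and a median log2 fold change of 0.46. That median depended on the filter on low counts, at 0.26 with every gene of at least 1 count and 0.11 with genes of at least 1 CPM throughout a group. Mmp2 and Mmp9, the gelatinases, rose from 1.61 ± 0.0471 to 3.58 ± 0.456 CPM (log2 fold change 1.15, SE 0.15, edgeR adjusted p 0.000576) and from 0.312 ± 0.071 to 0.900 ± 0.120 CPM (log2 fold change 1.52, SE 0.27, edgeR adjusted p 0.00325). Mmp14, the membrane-bound activator of MMP2, rose from 8.19 ± 0.219 to 11.2 ± 0.189 CPM (log2 fold change 0.46, SE 0.07, edgeR adjusted p 0.00143). The aggrecan-cleaving enzyme gene Adamts5 had the largest rise (log2 fold change 3.57, SE 0.23, edgeR adjusted p 1.22e-05) and Adam19 the largest fall (-0.70, SE 0.06, adjusted p 3.67e-05). Adam19 was nevertheless the more abundant of these, falling from 35.2 ± 1.55 to 21.6 ± 0.961 CPM, while Adamts5 reached 2.29 ± 0.127 CPM in Srrm2+/-. Adamts5 and Adam12, also called higher, could be tested only with the counts of the Srrm2+/- libraries. For the inhibitors, 7 further genes were listed and 5 were tested, with Timp2 and Serpine2 higher and the cystatin gene Cst3 lower (log2 fold change -0.47, SE 0.06, edgeR adjusted p 0.000653). The median log2 fold change of that list was -0.0295 and took either sign when 1 library was left out, from -0.23 without WT replicate 2 to 0.37 without WT replicate 3.

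Transforming growth factor beta is known to raise transcription of many matrix genes, so its ligands, receptors and SMADs were listed. Ski and Skil, which encode repressors of SMADs, were listed with them. Of 12 listed, 11 were tested, with 5 higher, 1 lower and a median log2 fold change of 0.0612. Skil was among the 5 higher (log2 fold change 0.28, SE 0.06, edgeR adjusted p 0.0103). The median was 0.20 without WT replicate 1, 0.16 without WT replicate 2, 0.17 without WT replicate 3 and 0.19 without Srrm2+/- replicate 1, and 0.18 with every gene of at least 1 count. Tgfb2 rose most, from 0.612 ± 0.0413 to 4.96 ± 0.430 CPM (log2 fold change 3.02, SE 0.15, edgeR adjusted p 2.90e-06), and the inhibitory SMAD gene Smad7 fell (log2 fold change -0.20, SE 0.06, edgeR adjusted p 0.0344). Tgfbr3, also called higher, could be tested only with the counts of the Srrm2+/- libraries. Without Srrm2+/- replicate 3, 3 genes of this list were called.

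**Figure D5:**
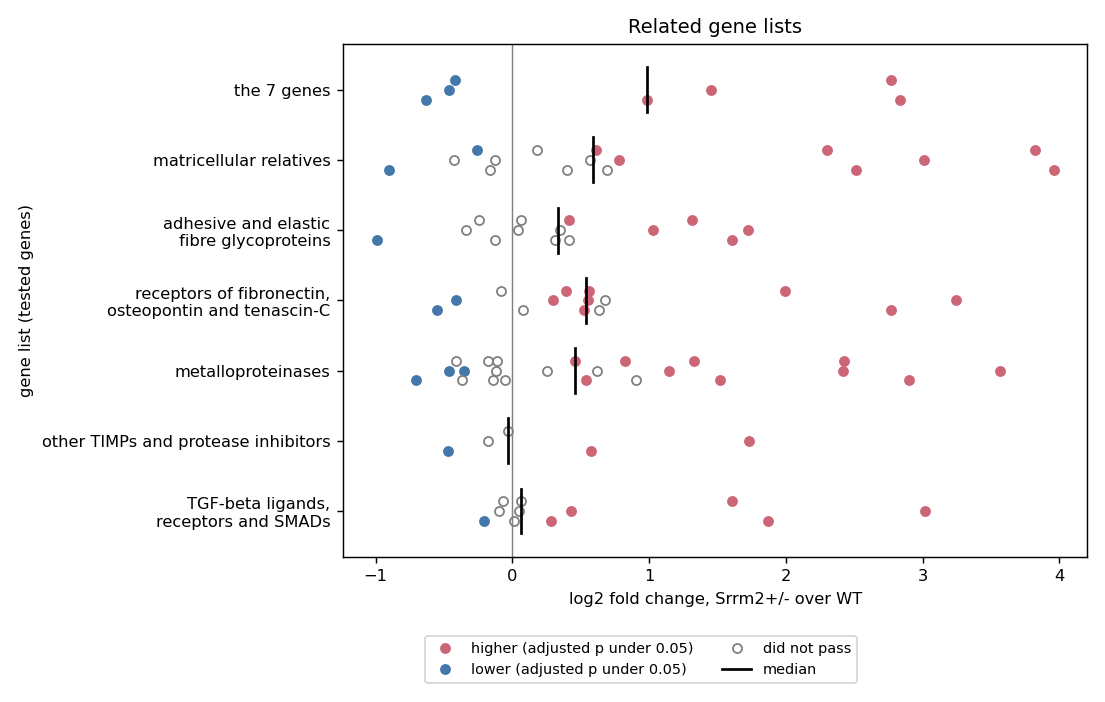
Log2 fold change of Srrm2+/- over WT for the 7 genes and for the tested genes of 6 related lists, 1 point a gene, filled where the edgeR adjusted p was under 0.05, with the median of each list as a line. Rises reach farther from 0 than falls in every list, and the medians lie between -0.0295 and 0.59 for the 6 lists.

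Markers of other cell types were measured beside these results, where 13.6% of all tested genes were called higher and 11.7% lower. Of 12 fibroblast and mesenchymal markers, 10 were tested, with 7 higher and none lower. Col1a2, Twist2 and Prrx1 of those 7 could be tested only with the counts of the Srrm2+/- libraries. The summed level of the 12 markers was 7.39 to 8.15 CPM in WT and 17.9 to 21.4 CPM in Srrm2+/-. Col1a1 rose from 0.504 ± 0.0191 to 1.11 ± 0.130 CPM and Col3a1 from 0.521 ± 0.142 to 2.53 ± 0.845 CPM. Of the 3 tested markers not called, Thy1 went the other way, from 1.93 ± 0.173 to 1.19 ± 0.498 CPM (log2 fold change -0.70, edgeR adjusted p 0.0939). Pdgfrb (0.23) and Fap (-0.0055) were the others, on the log2 scale. Lum stayed at or below 0.0541 CPM. Dcn, which marks mature fibroblasts, had no count in WT and at most 0.0578 CPM in Srrm2+/-. Of 17 markers of primitive and parietal endoderm, 14 were tested, with 6 higher and 1 lower. The sums of the 17 were 229 to 270 CPM in WT and 286 to 338 CPM in Srrm2+/-. Laminin genes made up most of these sums, with Lamb1 higher (log2 fold change 0.73), Lama1 lower (-0.64) and Lamc1 not called (0.12). The basement membrane collagen genes Col4a1 and Col4a2, named after their values were seen, had the largest rises of the list, from 1.71 ± 0.687 to 18.1 ± 2.60 CPM (log2 fold change 3.40, SE 0.25, adjusted p 2.55e-05 in edgeR) and from 1.18 ± 0.148 to 10.1 ± 1.72 CPM (3.09, SE 0.16, adjusted p 3.70e-06). Thbd (2.35), Plat (1.83) and Dab2 (1.34) were the other genes called higher, and Thbd could be tested only with the counts of the Srrm2+/- libraries. The transcription factors that define endoderm were low in both groups. Gata6 was at 0.124 ± 0.0895 and 0.242 ± 0.0841 CPM and Gata4 at 0.949 ± 0.191 and 0.946 ± 0.104 CPM, neither past the threshold, and Sox17 stayed at or below 0.131 CPM. Of 7 macrophage markers, listed because macrophages express Spp1, 4 were tested in edgeR and 0 were called, also 0 at an unadjusted p under 0.05, with Ptprc at 0.496 ± 0.0524 and 0.596 ± 0.157 CPM and sums of 12.8 to 15.97 and 11.8 to 13.6 CPM. Cd68, at 12.4 ± 1.65 and 10.8 ± 0.817 CPM, made up most of the macrophage sums. Of 6 endothelial markers, 3 were tested, with 1 higher and 2 lower, and the sums of the 6 were 93.1 to 96.9 and 68.8 to 73.8 CPM. Pecam1 made up most of these sums, at 88.8 ± 2.00 and 65.8 ± 2.54 CPM, and Tek also fell (log2 fold change -0.59). Kdr rose from 0.102 ± 0.0557 to 1.05 ± 0.0646 CPM, but could be tested only with the counts of the Srrm2+/- libraries. Cdh5, Emcn and Erg stayed at or below 0.0324 CPM. All 8 pluripotency markers were tested, with 1 higher and 5 lower, and they summed to 4199 to 4311 CPM in WT and to 3600 to 3693 CPM in Srrm2+/-. The part of these cell types in the differences of the 7 genes was not tested.

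For each of the 7 genes the 3 genes with the most similar profile were found, by the Euclidean distance over the 6 libraries between log2 CPM values set relative to their WT mean, taken from genes that averaged 1 or more in log2 CPM. Spp1 lay nearest to Stag3 (distance 0.0447), Camk1d (0.0700) and Cpt1a (0.0796). Fn1 lay nearest to Alg13 (0.0820), Nfe2l1 (0.0920) and the pluripotency factor gene Esrrb (0.0937). Timp1 lay nearest to Ciart (0.0915), Ly6g6e (0.153) and B4galnt4 (0.190). The neighbours of Sparc were Ocln, Phldb1 and Rhbdf1 (0.122 to 0.147), and those of Timp3 were Igfbp4, Tpm2 and Lrp2 (0.181 to 0.238). Tnc and Postn themselves lay below the limit of expression, so genes of a like level were left out of their search. Their distances were larger. Phldb2, Arl4c and Mfap3l were at 0.318 to 0.425 from Tnc, and Colec12, Mfap3l and Peg10 at 0.702 to 0.897 from Postn. These distances are descriptions over 6 libraries in 2 groups, and many genes that differ between the groups by a similar amount lie close to one another.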

How the data were processed

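The authors pseudo-aligned reads of 6 stranded total RNA libraries with Kallisto 0.46.1 to the GENCODE release M24 mouse transcriptome (mm10) and deposited estimated counts per gene, without normalization. Estimated counts were rounded. GENCODE release M21 (GRCm38, the same build) gave symbols, positions and lengths, and matched 42156 of the 42450 identifiers. Groups and replicate numbers came from sample titles.

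Genes past filterByExpr (edgeR defaults, minimum count 10, minimum total 15) were tested with edgeR 4.0.16 (TMM scaling, then glmQLFit and a two-sided glmQLFTest) for the effect of genotype over the 6 libraries, with no covariate. Benjamini-Hochberg adjustment covered the 18905 tested genes, and an adjusted p under 0.05 counted as a call. The standard error is the log2 fold change divided by the square root of F. Log2 CPM used a prior count of 2. The procedure was tested on simulated counts.

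The 7 genes, the lists, the tests and the alternatives were chosen with earlier results of these data known. Named genes were the 7, Srrm2, the largest called rise and fall of each list, family relatives, main receptors, gelatinases with Mmp14, defining markers and 3 neighbours by profile. As alternatives, the fit was repeated with DESeq2 1.42.0, with limma 3.58.1 (voom), under upper quartile and RLE scaling, with 2 other filters, the replicate number as a block, leaving out each library, a call rule that also required a 2-fold change, and the longest transcript as length. Libraries of 1 group differed by far more than sampling noise (a chi-square of 14.7 or more for each degree of freedom), so none was counted as a repeat. Promoter sequences are from RefSeq (GRCm38.p6), which matched 6 of the 7 genes.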

Additional observations from a re-analysis of the deposited data

How the results depend on the processing

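Spp1, Fn1, Sparc, Tnc and Timp3 kept their direction and stayed past the threshold under all 13 alternative fits, and Postn under the 12 that could test it, since a stricter filter on CPM removed it. Timp1 kept its direction in 13 and its call in 9. Leaving out 1 library, 6 to 7 of the 7 genes were called, and 3515 to 4122 of all tested genes. Called genes of the TGF-beta list then ranged from 3 to 5, against 6 with all libraries. When a 2-fold change was also required, 3 of the 7 genes were called, Tnc, Postn and Timp3, with Sparc just under the limit at 0.99.

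Libraries with equal replicate numbers shared no deviation from their group means (r of -0.0285, -0.0337 and -0.03), and the samples were therefore not treated as paired. With the replicate block, 7 of the 7 genes and 4166 of all tested genes were called. The median of the inhibitor list reversed from -0.0295 to 0.37 without WT replicate 3 and ranged from -0.23 to 0.37 when 1 library was left out. The cause was not tested. Of 78 list medians under alternatives, 16 others kept their sign but moved by at least the SD of that list median over the Srrm2+/- libraries. Among them was the metalloproteinase median, 0.11 under the stricter filter. RLE and upper quartile scaling moved the median of all genes by -0.00145 and 0.00459 on the log2 scale. Counts of 3 to 8 in WT limit the precision for Postn.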
